A study of Mus musculus with 6 samples.

Results

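To examine how loss of progranulin (PGRN), a secreted glycoprotein encoded by Grn, changed the transcripts of the interferon-induced proteins with tetratricopeptide repeats (IFIT) in macrophages exposed to Candida albicans, the rows of the 4 mouse genes Ifit1, Ifit2, Ifit3 and Ifit3b were taken by symbol from a table of 54532 genes. All 4 were found, and all 4 passed the filter on low values. The data comprised 3 WT libraries (replicates 1, 2 and 3) and 3 PGRN KO libraries (replicates 4, 5 and 6), each from C57BL/6J macrophages that the labels place in the peritoneal cavity, plated at 2000000 cells per well and exposed for 6 hours to live C. albicans, 1 fungal cell to each macrophage. Every library came from challenged cells, also those whose titles call them controls, so no level without the fungus was available, and an induction by the fungus could not be measured. The text of the study describes bone marrow-derived macrophages and another ratio of fungus to cells, and the labels were followed here. PGRN KO animals came from a different supplier than the WT animals and were matched to them for sex and age according to the methods of the study, and the sources used here do not give the ages. Genotype and supplier therefore cannot be told apart. Nothing in the labels says whether the replicates came from separate animals, so p-values measure the spread between these libraries only.

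IFIT proteins are among the most strongly induced products of type I interferon signalling. Interferons bind their receptor and activate the Janus kinases JAK1 and TYK2, and a complex called ISGF3, of which STAT2 and IRF9 are part, then binds a DNA element called the interferon-stimulated response element (ISRE) in front of its target genes. IFIT1 binds viral RNA whose cap lacks a methyl group and blocks its translation, IFIT2 takes part in translational inhibition and in cell death, and IFIT3 binds other IFIT proteins and acts as a scaffold. Ifit3b is a close copy of Ifit3 in the mouse genome.

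The 4 genes lie in 1 cluster on chromosome 19 (GRCm38), which runs over 99.3 kb from the start of Ifit2 to the end of Ifit1. All 4 are protein coding and on the plus strand. In the deposited annotation, Ifit2 (ENSMUSG00000045932) spans 34550694 to 34576419, Ifit3 (ENSMUSG00000074896) 34583531 to 34588731, Ifit3b (ENSMUSG00000062488) 34607970 to 34613401 and Ifit1 (ENSMUSG00000034459) 34640871 to 34650009. The gene models used to scale the values have 3927, 1745, 2000 and 2656 bases in the same order. In the GENCODE annotation, Ifit1, Ifit3 and Ifit3b each have 2 exons, and the longer of the transcripts of Ifit2 has 3. Ifit1bl1 and Ifit1bl2 lie between them on the minus strand, and Ifit1bl2 starts head to head with Ifit1.

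The bases in front of each start are shown because ISGF3 acts through letters found there. Each stretch below was read 5′ to 3′ from RefSeq (GRCm38.p6), ends before the transcribed part of the IFIT gene models and has the ISRE core, 2 copies of TTTC with any 2 bases between them, searched on both strands, in capitals. The stretches are chr19:34640744-34640870 for Ifit1, chr19:34583279-34583528 for Ifit3, chr19:34607707-34607956 for Ifit3b and chr19:34550444-34550693 for Ifit2, all on the plus strand.
Ifit1: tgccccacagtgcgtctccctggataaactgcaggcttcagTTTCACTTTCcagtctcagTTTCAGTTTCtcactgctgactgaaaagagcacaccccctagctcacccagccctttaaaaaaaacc
Ifit3: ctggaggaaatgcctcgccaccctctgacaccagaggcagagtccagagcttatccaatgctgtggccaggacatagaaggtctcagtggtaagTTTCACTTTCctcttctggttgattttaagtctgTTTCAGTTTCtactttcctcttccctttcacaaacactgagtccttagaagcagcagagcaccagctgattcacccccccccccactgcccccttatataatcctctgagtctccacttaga
Ifit3b: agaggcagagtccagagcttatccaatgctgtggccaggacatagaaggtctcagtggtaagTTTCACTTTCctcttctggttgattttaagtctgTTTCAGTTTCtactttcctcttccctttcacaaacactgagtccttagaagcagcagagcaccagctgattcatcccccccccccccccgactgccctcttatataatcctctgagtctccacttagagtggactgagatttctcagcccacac
Ifit2: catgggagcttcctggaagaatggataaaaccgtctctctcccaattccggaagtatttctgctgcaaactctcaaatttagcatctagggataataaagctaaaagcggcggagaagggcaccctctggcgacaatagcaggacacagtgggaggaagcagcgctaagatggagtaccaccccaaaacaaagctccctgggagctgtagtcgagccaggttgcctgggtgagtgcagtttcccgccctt
Ifit1, Ifit3 and Ifit3b each held 2 cores, and the letters of the first and of the second core were the same in the 3 genes. The first bases of the cores were 19 bases apart in Ifit1 and 34 bases apart in Ifit3 and Ifit3b. Counted so that -1 is the base just before the RefSeq start, the cores began at -104 and -85 in Ifit1, at -156 and -122 in Ifit3 and at -188 and -154 in Ifit3b. Of 32817 RefSeq windows of 300 bases (250 before and 50 after a start), 3.43% held the core at least once and 0.222% held it 2 or more times. The longer form, the core with AG directly before it, was in 0.271% of windows and was found 2 times in the Ifit1 window and 1 time in those of Ifit3 and Ifit3b. Neither of the 2 RefSeq windows of Ifit2 held the core. These windows cover only 250 bases before and 50 after each start, and no other stretch of Ifit2 was searched. A core outside them would not have been seen. The 2 cores of Ifit1 also fell in the window of Ifit1bl2, read on the other strand. These matches describe letters only, and no binding was measured.

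Deposited values were FPKM, that is fragments divided by gene model length and by library size. The libraries held 15996786 to 17551619 counted fragments, of which 17633 to 20775 fell on the 4 genes in WT and 48135 to 56891 in PGRN KO. Grn, the targeted gene, was at 324, 337 and 325 FPKM in the WT libraries but at 0.0166, 0 and 0.0167 FPKM in the PGRN KO libraries, so the genotype labels matched the data. One library stood apart. In PGRN KO replicate 6, short genes read high and long genes low (Spearman correlation of -0.47 across 8882 genes between gene length and the deviation from the gene mean, against 0.15 to 0.24 in the other libraries), and its sample quality weight was 0.0899. Genes are not independent replicates, and this value is a description.

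All 4 IFIT transcripts were higher in PGRN KO than in WT macrophages, with 1.95 to 3.24 times the mean level. Among all 8882 tested genes (mean FPKM of at least 1), 24.2% were called, 10.4% higher in PGRN KO and 13.8% lower (limma, adjusted p under 0.05). Counts of genes called in the lists below are to be read beside these shares. The rise was smallest in Ifit1, which was the most abundant of the 4 in every library, and groups did not overlap in any of them. That every PGRN KO library lay above every WT library held for 21.2% of tested genes. With 3 against 3 libraries, the exact permutation test cannot go below 0.1, the value it gave for each of the 4 genes. Fold changes below are on the log2(FPKM + 1) scale, which understates the change of low genes.

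**Figure D1:**
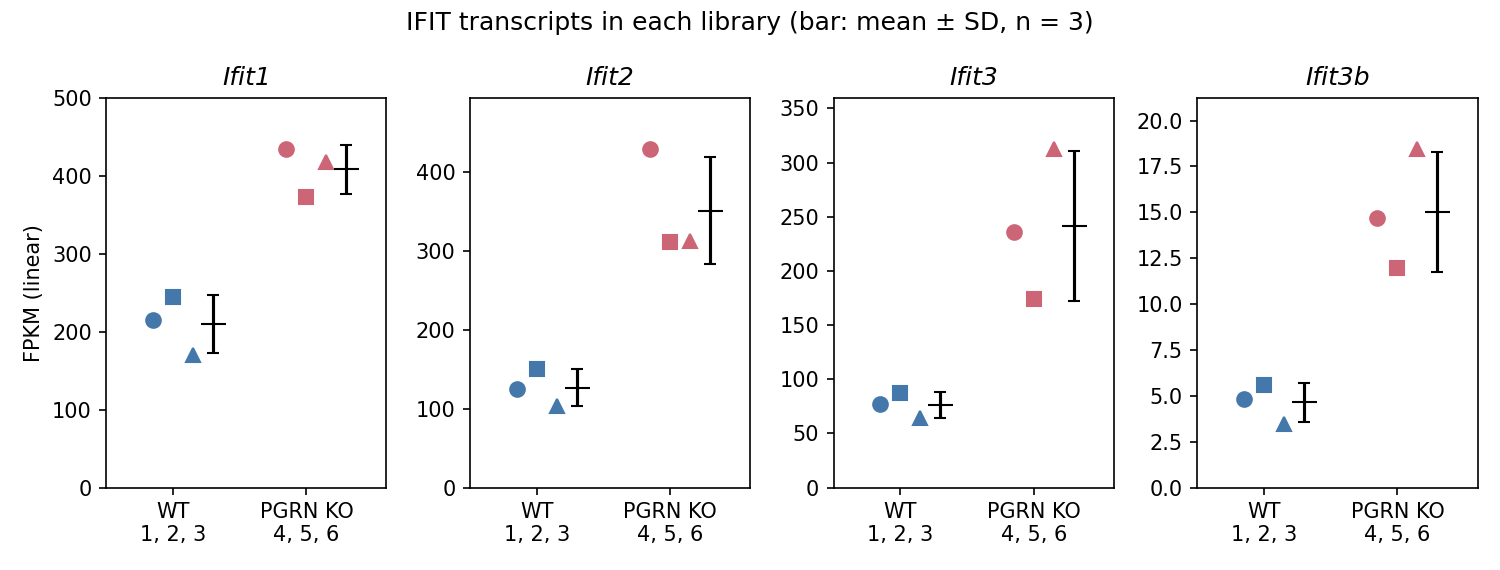
FPKM (linear axis from 0, a separate axis for each gene) of Ifit1, Ifit2, Ifit3 and Ifit3b in 3 WT libraries (blue; circle, square and triangle for replicates 1, 2 and 3) and 3 PGRN KO libraries (red; circle, square and triangle for replicates 4, 5 and 6), with mean ± SD beside them. In each gene, all PGRN KO libraries lie above all WT libraries, and WT replicate 3 is the lowest of the 6.

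Ifit1, whose product binds foreign RNA caps, was at 215.5, 244.2 and 170.1 FPKM in WT replicates 1, 2 and 3 and reached 435.1, 373.6 and 417.7 FPKM in PGRN KO replicates 4, 5 and 6. The lowest PGRN KO library was 1.53 times the highest WT library. The means were 209.9 ± 37.4 FPKM in WT libraries and 408.8 ± 31.7 FPKM in PGRN KO libraries (SD, n = 3 each), and the log2 fold change was 0.97 (SE 0.15, 95% confidence interval 0.62 to 1.33; limma adjusted p of 0.00642). The spread within each genotype was thus smaller than the difference between them.

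Ifit2, which takes part in translational inhibition, was at 125.7, 150.8 and 103.7 FPKM in WT libraries and at 429.8, 311.1 and 313.2 FPKM in PGRN KO libraries, in the order of the replicates. PGRN KO replicate 4 was high, while replicates 5 and 6 were close to each other, and the lowest of them was 2.06 times the highest WT library. The log2 fold change was 1.46 (SE 0.18, 95% confidence interval 1.03 to 1.90; limma adjusted p of 0.00343), and the means were 126.7 ± 23.6 and 351.4 ± 67.9 FPKM (SD, n = 3 each).

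Ifit3, the scaffold of the family, was at 76.9, 87.5 and 63.9 FPKM in WT libraries and at 236.0, 174.5 and 312.7 FPKM in PGRN KO libraries. Its highest value came from PGRN KO replicate 6, and this short gene model is of the kind that read high there. The log2 fold change was 1.62 (SE 0.22, 95% confidence interval 1.10 to 2.15; limma adjusted p of 0.00452), and 1.42 without replicate 6. The means were 76.1 ± 11.9 and 241.1 ± 69.2 FPKM (SD, n = 3 each).

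Ifit3b, the copy of Ifit3, was at 4.81, 5.61 and 3.49 FPKM in WT libraries and at 14.7, 11.9 and 18.5 FPKM in PGRN KO libraries. These values rest on 126 to 166 fragments per WT library and 452 to 638 per PGRN KO library, against 2011 to 2259 and 5765 to 9430 for Ifit3. The log2 fold change was 1.51 (SE 0.19, 95% confidence interval 1.05 to 1.96; limma adjusted p of 0.00367), and the means were 4.64 ± 1.07 and 15.0 ± 3.27 FPKM (SD, n = 3 each).

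Ifit3 and Ifit3b share most of their sequence, so their split is uncertain. Their transcripts were 98.0% identical over 1697 aligned bases, and 61.8% of the 31-base words of Ifit3 and 55.3% of those of Ifit3b occurred in a transcript of another gene. The corresponding shares were 10.8% for Ifit1, mostly with Ifit1bl2, and 0% for Ifit2. The sources used here do not say how fragments that fit both copies were counted. Summed as 1 gene, Ifit3 and Ifit3b gave a log2 fold change of 1.63 ± 0.22 (SE). The ratio of Ifit3 to Ifit3b was 16.6 ± 1.46 in WT libraries and 15.9 ± 1.17 in PGRN KO libraries (SD, n = 3 each), and the groups overlapped.

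Scaled to all counted fragments rather than to the library sizes of the authors, the picture was alike. Ifit1 was at 540.6 ± 69.3 fragments per 1000000 counted fragments in WT libraries and 1133 ± 69.2 in PGRN KO, and Ifit2 at 482.3 ± 64.4 and 1443 ± 287.3. Ifit3 was at 128.9 ± 13.4 and 436.1 ± 107.1, and Ifit3b at 8.98 ± 1.64 and 31.2 ± 5.47 (SD, n = 3 each). Groups again did not overlap for any of the 4 genes, and the ratio of the means was 2.10 to 3.48.

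Levels were then ordered within each library. FPKM is scaled to length, so levels were set side by side across genes, with limits. The levels of Ifit3 and Ifit3b depend on how fragments that fit both were counted, which is not known. In PGRN KO replicate 6 short genes read high, and Ifit3 has the shortest gene model of the 4. The order was Ifit1, Ifit2, Ifit3 and Ifit3b in all 6 libraries. In PGRN KO replicate 4, Ifit1 and Ifit2 (435.1 and 429.8 FPKM) were nearly level, and in replicate 6 Ifit2 and Ifit3 were (313.2 and 312.7 FPKM). Within PGRN KO the neighbours Ifit1 and Ifit2, and Ifit2 and Ifit3, overlapped across libraries, whereas within WT no 2 genes did. By mean level over WT libraries, Ifit1 ranked 242 among the 8882 tested genes, Ifit2 392, Ifit3 616 and Ifit3b 5042. By mean level over PGRN KO libraries the ranks were 112, 129, 210 and 2363.

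**Figure D2:**
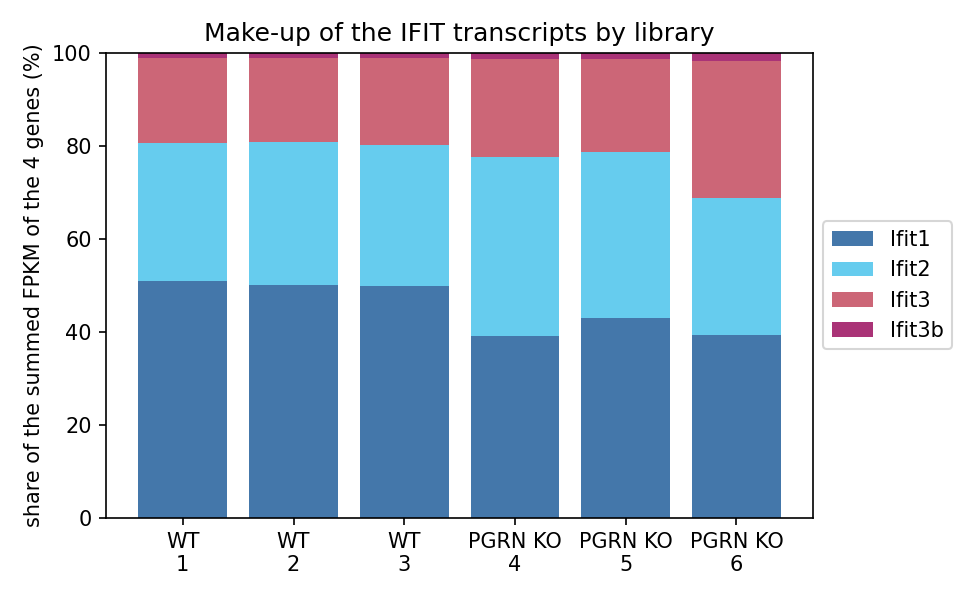
Share of the summed FPKM of Ifit1, Ifit2, Ifit3 and Ifit3b (stacked bars, percent, from 0 to 100) in each of the 6 libraries. Ifit1 makes up 49.9% to 51.0% of the sum in WT and 39.0% to 42.9% in PGRN KO, and the Ifit3 share of 29.4% in PGRN KO replicate 6 stands above the others.

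The make-up of the family differed in the libraries of the 2 genotypes. The summed level was 417.4 ± 73.7 FPKM in WT libraries and 1016 ± 128.5 FPKM in PGRN KO libraries (SD, n = 3 each). Ifit1 made up 50.3% ± 0.588 of it in WT and 40.4% ± 2.16 in PGRN KO. Ifit2 made up 30.3% ± 0.584 and 34.6% ± 4.62, Ifit3 18.3% ± 0.405 and 23.5% ± 5.14, and Ifit3b 1.10% ± 0.0695 and 1.48% ± 0.229. The shares were nearly the same in the 3 WT libraries and varied more in PGRN KO. The limits given above for Ifit3, Ifit3b and PGRN KO replicate 6 hold for the shares too.

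To ask whether the genes moved by different amounts, the log2 ratio of each pair, with 1 added to each FPKM, was compared between genotypes within libraries (6 pairs, exact two-sided permutation test). The log2 ratio of Ifit1 to Ifit2 was 0.77, 0.69 and 0.71 in WT and 0.02, 0.26 and 0.41 in PGRN KO. The log2 ratio of Ifit1 to Ifit3 was 1.47, 1.47 and 1.40 in WT and 0.88, 1.09 and 0.42 in PGRN KO. The log2 ratio of Ifit1 to Ifit3b was 5.22, 5.21 and 5.25 in WT and 4.80, 4.86 and 4.43 in PGRN KO. In these 3 pairs the groups did not overlap, with differences (PGRN KO minus WT) of -0.49, -0.65 and -0.53, a raw permutation p of 0.1, the smallest possible, and an adjusted p of 0.2. Relative to each of the other 3 genes, Ifit1 was thus lower in every PGRN KO library than in every WT library, but the exact permutation test of 3 against 3 libraries cannot pass the threshold, and no other test of the ratios was run.

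The other 3 pairs overlapped. Ifit2 to Ifit3 differed by -0.16 (permutation p of 1), Ifit2 to Ifit3b by -0.04 (permutation p of 1) and Ifit3 to Ifit3b by 0.12 (permutation p of 0.2, adjusted p of 0.3). The sign of the first and the second rested on PGRN KO replicate 6. There the log2 ratio of Ifit2 to Ifit3 was 0.00247, that is nearly equal levels. It was 0.86 and 0.83 in replicates 4 and 5 and 0.69 to 0.78 in WT. Without replicate 6, Ifit2 to Ifit3 differed by 0.12 and Ifit2 to Ifit3b by 0.18. The gene models differ in length, and with a loess correction of each library for gene length the difference was -0.05 for Ifit2 to Ifit3 and 0.05 for Ifit2 to Ifit3b, whereas it stayed at -0.55, -0.61 and -0.50 for Ifit1 to Ifit2, Ifit3 and Ifit3b.

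The order of the libraries was the same for all 4 genes in WT but not in PGRN KO. WT replicate 2 was the highest and WT replicate 3 the lowest for all 4 genes. PGRN KO replicate 5 was the lowest for all 4, while the highest was replicate 4 for Ifit1 and Ifit2 and replicate 6 for Ifit3 and Ifit3b. The coefficient of variation was 15.6% to 23.1% in WT and 7.75% to 28.7% in PGRN KO.

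Next, the genes around the 4 were examined. Ifit1bl1, an Ifit1-like gene between Ifit3 and Ifit3b, was at 1.34, 1.22 and 1.19 FPKM in WT libraries and 2.69, 1.93 and 3.10 FPKM in PGRN KO libraries, a log2 fold change of 0.65 (SE 0.14, limma adjusted p of 0.0173). The call of Ifit1bl1 was lost without any 1 of the WT libraries or PGRN KO replicate 4 (adjusted p of 0.0530 to 0.0702) and with no filter on low values (0.0580). Ifit1bl2, which starts head to head with Ifit1, was too low to be tested, at 0.781, 0.703 and 0.379 FPKM in WT libraries and 0.6002, 0.957 and 0.928 FPKM in PGRN KO libraries, and its groups overlapped. Ifit1bl1 and Ifit1bl2 share 90.5% of aligned bases, so their split is uncertain too.

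**Figure D3:**
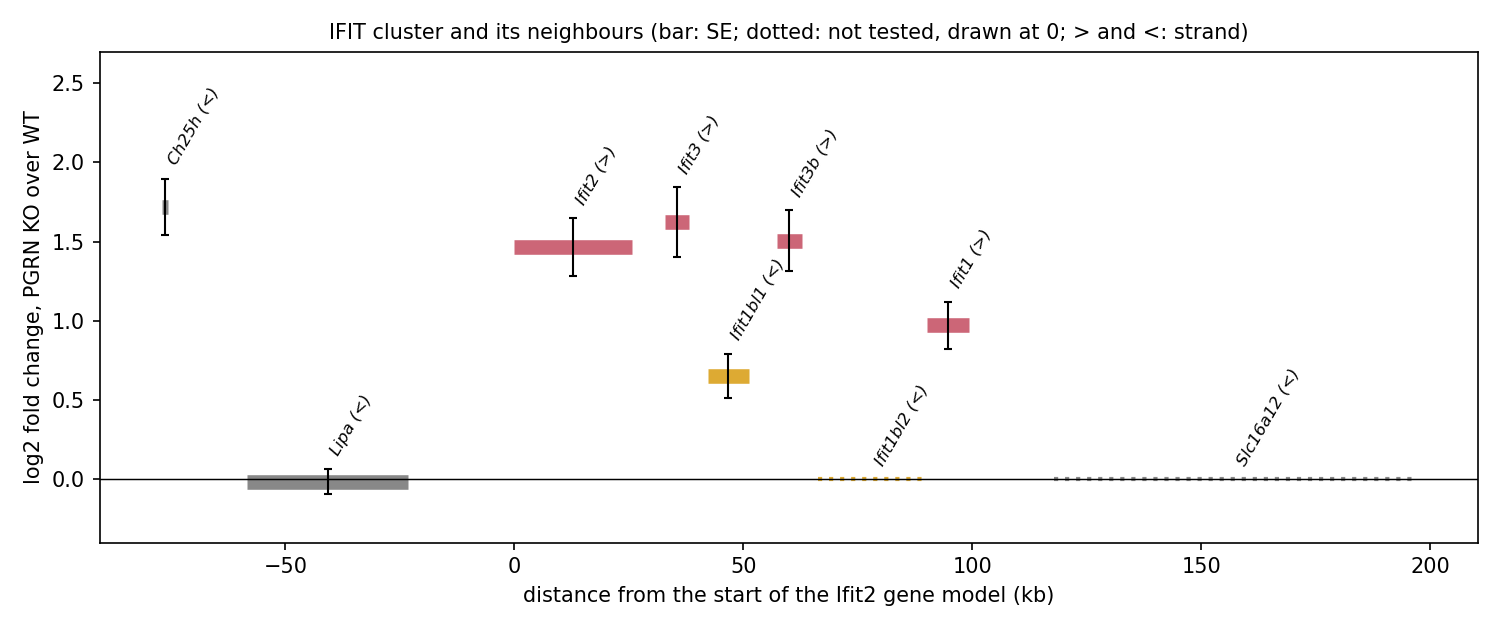
Log2 fold change (PGRN KO over WT, log2(FPKM + 1) scale, bars show SE) of the genes of the IFIT cluster and the 3 genes beside it, drawn to scale at their distance in kb from the start of Ifit2. The 4 IFIT genes (red) lie between 0.97 and 1.62, Ifit1bl1 (yellow) at 0.65, Ch25h at 1.72 and Lipa at -0.02; Ifit1bl2 and Slc16a12 (dotted) were not tested.

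Of the 8 genes beside the cluster, 5 could be tested, 1 was called higher and none lower by limma (also 0 lower at an unadjusted p under 0.05 or with voom). Lipa, which encodes lysosomal acid lipase and ends 23.2 kb before Ifit2, was at 46.1, 44.2 and 44.5 FPKM in WT libraries and at 46.3, 43.9 and 43.2 FPKM in PGRN KO libraries, with overlapping groups and a log2 fold change of -0.02 ± 0.08 (SE, limma adjusted p of 0.904). Ch25h, which encodes cholesterol 25-hydroxylase and lies beyond Lipa, 75.6 kb from Ifit2, was at 8.15, 11.4 and 8.83 FPKM in WT libraries and at 35.9, 26.1 and 38.7 FPKM in PGRN KO libraries. The log2 fold change of Ch25h was 1.72 ± 0.18 (SE, limma adjusted p of 0.00196). Further out, Stambpl1 (log2 fold change 0.20, adjusted p of 0.162), Acta2 (-0.04, 0.817) and Fas (0.05, 0.841) did not pass the limma threshold. Slc16a12, on the other side and 18.4 kb from Ifit1, was listed at 0 FPKM in every library, and Pank1 and Kif20b had means under 0.06 FPKM in both genotypes. The IFIT genes and Ch25h were thus higher in PGRN KO, while Lipa, which lies between them, did not pass the test.

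The inputs to the IFIT genes were then examined, beginning with the ligands. Of 17 interferon genes, 11 were listed at 0 in every library and 2 could be tested. Ifnb1, the type I interferon first made by many cells, was at 5.66, 6.94 and 3.62 FPKM in WT libraries and 7.39, 5.42 and 8.95 FPKM in PGRN KO libraries, with overlapping groups and a log2 fold change of 0.38 ± 0.24 (SE, limma adjusted p of 0.274). Ifng, the type II interferon, was at 10.4, 10.8 and 8.73 FPKM in WT libraries and 10.8, 7.26 and 11.5 FPKM in PGRN KO libraries (log2 fold change -0.03 ± 0.17, SE, limma adjusted p of 0.907). No difference in these ligands was detectable at 6 hours. The ligands listed at 0 throughout were Ifna2, Ifna4, Ifna5, Ifna6, Ifna9, Ifna11, Ifna12, Ifnab, Ifne, Ifnl2 and Ifnl3, and Ifna1, Ifna13, Ifnk and Ifnz stayed under 1 FPKM.

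Among 8 tested interferon receptors and Janus kinases, 1 was called higher and 1 lower, against 10.4% higher and 13.8% lower over all tested genes. Tyk2, a kinase of the type I receptor, was at 2.60, 2.42 and 2.49 FPKM in WT libraries and 4.74, 4.75 and 3.75 FPKM in PGRN KO libraries (log2 fold change 0.62 ± 0.11, SE, limma adjusted p of 0.00866). Jak1, its partner kinase, was lower, at 63.4, 65.6 and 59.9 against 44.7, 44.1 and 34.0 FPKM (log2 fold change -0.62 ± 0.12, SE, limma adjusted p of 0.0146), and this call was lost without any 1 of the WT libraries and on the TPM scale (adjusted p of 0.0514 to 0.0697). The receptor genes themselves did not pass the test. Ifnar1, a chain of the type I receptor, did without PGRN KO replicate 6 (log2 fold change 0.29, limma adjusted p of 0.0419), which made the count higher 2. Ifnar2, its other chain, was at 26.5, 28.9 and 28.0 FPKM in WT libraries and 33.5, 29.4 and 38.5 FPKM in PGRN KO libraries (log2 fold change 0.27, limma adjusted p of 0.131). Ifnar2 was called higher with summed fragments, quantile normalization and sample quality weights (limma adjusted p of 0.0309 to 0.0415). Over all alternatives the count higher was 0 to 3.

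The genes of STAT2, which is phosphorylated at the type I receptor, and of IRF9, a DNA-binding part of ISGF3, were examined next. Stat2 was at 44.5, 46.2 and 41.1 FPKM in WT libraries and 72.3, 64.9 and 57.1 FPKM in PGRN KO libraries (log2 fold change 0.54 ± 0.11, SE, limma adjusted p of 0.0157), and its call was lost without any 1 of the WT libraries (adjusted p of 0.0553 to 0.0725). Irf9 was at 20.9, 21.4 and 19.4 FPKM in WT libraries and 20.2, 19.2 and 20.5 FPKM in PGRN KO libraries, with overlapping groups (log2 fold change -0.04 ± 0.08, SE, limma adjusted p of 0.745), and the sign of this value changed with the scaling.

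Upstream of interferon, 2 of 12 tested sensors and kinases were called higher and 1 lower, against 10.4% higher and 13.8% lower over all tested genes. Tlr3, a receptor for double-stranded RNA, rose from 1.65, 2.04 and 1.60 FPKM in WT to 7.84, 5.68 and 4.91 FPKM in PGRN KO libraries (log2 fold change 1.35 ± 0.16, SE, limma adjusted p of 0.00297). Ddx58, which encodes the RNA sensor RIG-I, rose by 0.69 ± 0.14 on the log2 scale (SE, limma adjusted p of 0.0140), a call lost without WT replicate 1 or 3 (adjusted p of 0.0608 and 0.0529). Ticam1, an adaptor of TLR3, was lower by limma (log2 fold change -0.52 ± 0.08, SE, adjusted p of 0.00726) but not without WT replicate 1 (adjusted p of 0.0516). The count higher was thus 1 without WT replicate 1 or 3, and it was 4 without PGRN KO replicate 6 and 6 with sample quality weights. Irf7, on the same list, was at 114.6, 127.5 and 106.3 FPKM in WT libraries and 173.8, 130.7 and 227.5 FPKM in PGRN KO libraries. It did not pass the threshold (log2 fold change 0.57 ± 0.20, SE, limma adjusted p of 0.0775). Irf7 was called higher on the TPM scale, with summed fragments, quantile normalization or sample quality weights, and without PGRN KO replicate 5.

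Of 6 feedback inhibitors, 2 were called higher, Usp18 with 0.88 ± 0.18 and Ptpn6 with 0.50 ± 0.14 (log2 fold change, SE, limma adjusted p of 0.0143 and 0.0428). Neither call held without WT replicate 1 or without WT replicate 3 (adjusted p of 0.0643 and 0.0596 for Usp18, 0.133 and 0.110 for Ptpn6), and that of Ptpn6 was also lost without WT replicate 2, without PGRN KO replicate 4 and with no filter on low values. USP18 removes ISG15 from proteins and dampens signalling at the type I receptor. None of the 6 was called lower in the reported fit, and their median log2 fold change was 0.005, against -0.03 over all tested genes. Pias1 was lower at an unadjusted limma p under 0.05 (log2 fold change -0.30). With sample quality weights, Pias1 (-0.22) and Socs3 (-0.26) were called lower (limma adjusted p of 0.0321 and 0.0384).

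The IFIT genes were also set beside 40 other interferon-stimulated genes, of which 25 were called higher and none lower by limma at an adjusted p under 0.05. Their median log2 fold change was 0.70, against -0.03 over all tested genes. Mx1, an antiviral GTPase, had the largest change, from 17.7, 19.7 and 15.0 FPKM in WT to 80.5, 58.4 and 67.3 FPKM in PGRN KO libraries (1.91 ± 0.15, SE, limma adjusted p of 0.00119). Cmpk2, a mitochondrial nucleotide kinase, rose by 1.67 ± 0.14 (log2, SE, limma adjusted p of 0.00119). The fold change of Ifit1 was exceeded by 11 of the 40 genes, that of Ifit2 by 4, and those of Ifit3 and Ifit3b by 3 each. Over all 8882 tested genes, 1.73% had a larger log2 fold change than Ifit1, 0.405% than Ifit2, 0.236% than Ifit3 and 0.372% than Ifit3b. None of the 40 was lower at an unadjusted p under 0.05 or with limma voom on fragments, while 1 was called lower with sample quality weights or without PGRN KO replicate 6. The count of 25 fell to 13 without WT replicate 1 and to 15 without WT replicate 3, and was 30 without PGRN KO replicate 6.

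**Figure D4:**
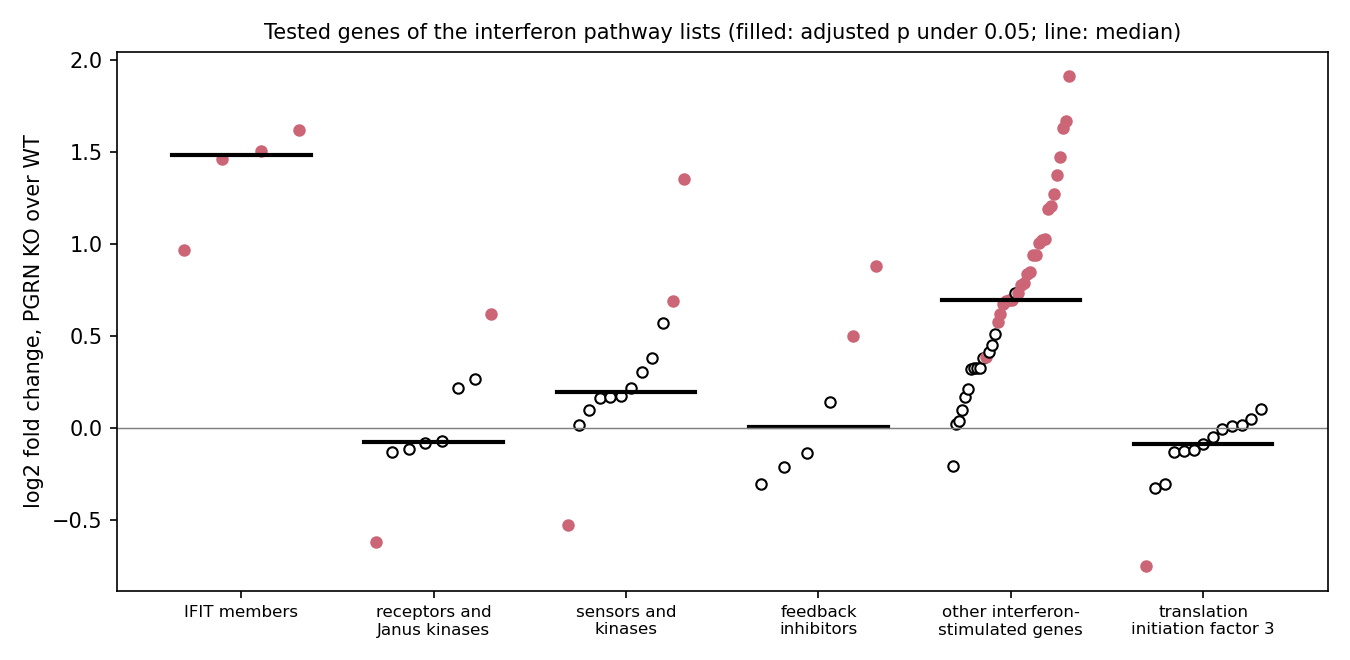
Log2 fold change (PGRN KO over WT, log2(FPKM + 1) scale) of every tested gene in the IFIT family and 5 pathway lists; filled points passed the limma threshold, open points did not, and lines mark the median. The 4 IFIT genes lie at or above 0.97, the median of the 40 other interferon-stimulated genes is 0.70, and that of the translation initiation factor 3 genes is -0.09.

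IFIT1 and IFIT2 bind subunits of translation initiation factor 3. The sources used here do not say which ones. Of its 13 tested genes none was called higher and 1 lower, which was Eif3a, the largest subunit, at 57.0, 58.0 and 56.8 FPKM in WT libraries and 35.0, 34.6 and 31.7 FPKM in PGRN KO libraries (log2 fold change -0.75 ± 0.08, SE, limma adjusted p of 0.00229). At an unadjusted p under 0.05, 3 of the 13 were lower and 0 higher, and voom called 2 lower. The count lower was 8 without PGRN KO replicate 6, 7 with sample quality weights and 4 with the loess correction for gene length, and Eif3a was among them under each of the alternatives. Of 3 tested cap methyltransferase genes, 1 was called lower and none higher by limma. It was Cmtr2 (log2 fold change -0.40 ± 0.10, SE, limma adjusted p of 0.0318). Cmtr1, on the same list and too low to be tested, went the other way. It was at 0.167, 0.197 and 0.183 FPKM in WT libraries and 0.395, 0.335 and 0.323 FPKM in PGRN KO libraries. The call of Cmtr2 was lost without any 1 library other than PGRN KO replicate 6, on the TPM scale, with summed fragments and with no filter on low values (adjusted p of 0.0555 to 0.133), and Cmtr2 was not tested at a mean FPKM of at least 5. Pcif1, whose product methylates the base beside the cap, was called higher under 8 of the 18 alternatives, among them voom and the fit without PGRN KO replicate 6. Rnmt was called lower with sample quality weights (log2 fold change -0.29) and without PGRN KO replicate 6, also with the loess correction (-0.26 each).

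Genes with a pattern like that of the family were sought by Pearson correlation of log2(FPKM + 1) with the mean of the 4 genes over the 6 libraries, among 8080 tested genes with an established symbol. The 5 most alike were Il15 (0.999), Arl6ip1 (0.999), Apobec1 (0.998), Gbp3 (0.998) and Trim21 (0.998). Il15, which encodes a cytokine of natural killer and T cells, was at 2.09, 2.93 and 1.45 FPKM in WT libraries and 9.78, 6.96 and 10.2 FPKM in PGRN KO libraries. The 5 most alike once the genotype means were subtracted were Pim1, Il1f9, F11r, Mrpl23-ps1 and Ms4a6d (0.996 to 0.999), and of these only Il1f9 and F11r had a correlation over 0.9 in the uncorrected values. The 6 points share the library scaling and the genes were selected among many, so these values are descriptions of the libraries with no test.

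The labelled cell type was checked on marker genes. All 8 macrophage markers were tested, among them Adgre1 at 162 to 195 FPKM and Lyz2 at 5657 to 8135 FPKM. Of these 8 genes 1 was called higher (Mertk, log2 fold change 0.81) and 1 lower (Csf1r, -0.38). The call of Csf1r was lost without any 1 library other than PGRN KO replicates 5 and 6, on the TPM scale and with summed fragments. Without PGRN KO replicate 6, Cd14, Fcgr1 and Itgam were called lower too (log2 fold change -0.55, -0.55 and -0.26). Of 5 markers of resident peritoneal macrophages, 2 were tested and 1 called higher (Icam2, 0.57), Gata6 was at 3.78 to 5.07 FPKM, and Timd4 stayed under 0.21 FPKM. Summed markers of other cells moved with genotype at low levels. The summed level of 5 B cell markers was 1.501 to 2.495 FPKM in WT libraries and 6.62 to 8.92 FPKM in PGRN KO libraries. Both tested members were called higher (log2 fold change 1.29 for Cd79a and 0.71 for Cd79b). The call of Cd79b was lost without any 1 of the WT libraries or PGRN KO replicate 4, with no filter on low values and with quantile normalization. The sum over 5 mast cell markers was 2.23 to 3.19 and 9.31 to 13.9 FPKM. Both tested members were called higher (log2 fold change 1.55 for Tpsb2 and 1.53 for Cma1). Kit, on the same list and too low to be tested, went the other way. It was at 0.423, 0.395 and 0.218 FPKM in WT libraries and 0.343, 0.130 and 0.156 FPKM in PGRN KO libraries, with overlapping groups. Sums over 7 T and natural killer cell markers were 1.05 to 1.46 and 2.18 to 2.63 FPKM, and over 7 fibroblast and mesothelial markers 0.925 to 1.07 and 1.94 to 3.53 FPKM, with no member tested. Not all members rose. Means in WT and PGRN KO were 0.0671 and 0.0604 FPKM for Ncr1 and 0.0317 and 0.00651 FPKM for Klrb1c, both natural killer cell markers. Of the mesothelial markers, Msln had means of 0.103 and 0.0705 FPKM, Upk3b 0.0169 and 0.00546 FPKM, and Wt1 0.00322 and 0.0212 FPKM. The part of these cells in the IFIT result was not tested, and fewer cells of a type and less RNA per cell cannot be told apart in bulk samples.

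Plasmacytoid dendritic cells, a strong source of type I interferon, were not seen by their defining gene. Siglech was listed at 0 in 5 of 6 libraries and at 0.0156 FPKM in the other, and the sum over the 5 markers was 1.83 to 2.39 FPKM in WT libraries and 3.47 to 5.57 FPKM in PGRN KO libraries, mostly from Tcf4 and Spib. Mean levels in WT and PGRN KO were 0.370 and 1.57 FPKM for Spib, but 0.0827 and 0.0256 FPKM for Ccr9, and neither was tested. Tcf4 was called higher without PGRN KO replicate 6 (log2 fold change 0.56), with sample quality weights (0.58), with voom (0.64) and with the loess correction for gene length (0.70). The 5 conventional dendritic cell markers summed to 1.84 to 2.27 FPKM in WT libraries and 1.10 to 1.44 FPKM in PGRN KO libraries, with Cd209a at 0. Means in WT and PGRN KO were 1.16 and 0.388 FPKM for Xcr1 and 0.320 and 0.120 FPKM for Flt3. Zbtb46 (0.550 and 0.698 FPKM) and Clec9a (0.0361 and 0.0560 FPKM) went the other way, and none of the 5 was tested. The 8 neutrophil markers summed to 48.8 to 53.2 FPKM in WT libraries and 21.5 to 26.5 FPKM in PGRN KO libraries, nearly all from S100a8 (log2 fold change -1.07, limma adjusted p of 0.00142), with Ly6g and Elane listed at 0. Of those too low to be tested, S100a9 (means of 0.0432 and 0.18 FPKM), Camp (0.176 and 0.199 FPKM) and Retnlg (0 and 0.0975 FPKM) went the other way. Mpo (0.0329 and 0 FPKM) and Ngp (0.0184 and 0.0144 FPKM) did not.

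**Figure D5:**
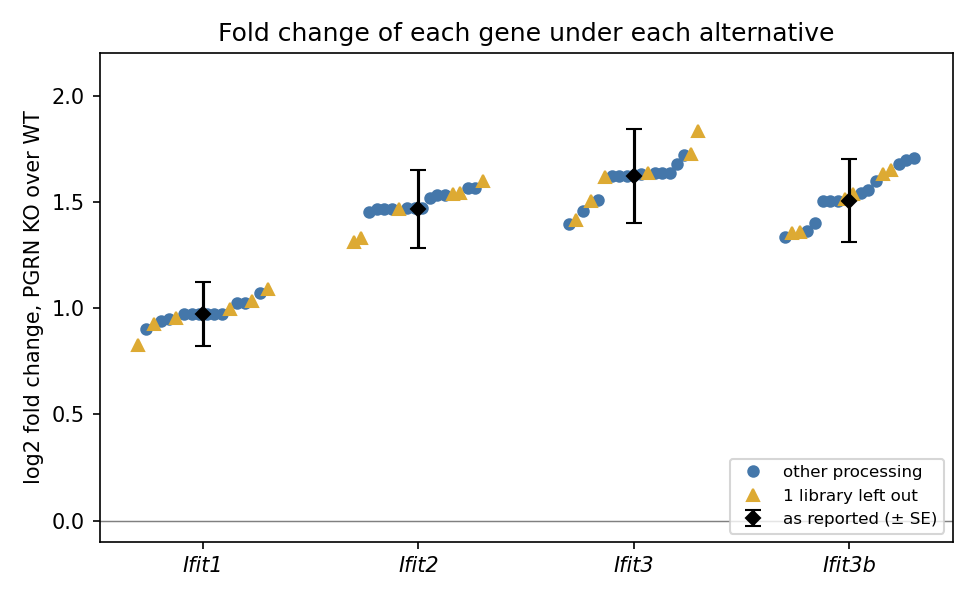
Log2 fold change (PGRN KO over WT) of each IFIT gene as reported (black diamond, bar shows SE), with other processing (blue circles) and with 1 library left out (yellow triangles). Every value lies above 0, between 0.83 and 1.09 for Ifit1, 1.31 and 1.60 for Ifit2, 1.40 and 1.83 for Ifit3 and 1.34 and 1.71 for Ifit3b.

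The rise of the 4 genes did not depend on 1 library or setting among those tried. All 4 were called higher under each of the 18 alternatives, and the limma adjusted p was at most 0.0374 for Ifit1, 0.0248 for Ifit2, 0.0280 for Ifit3 and 0.0241 for Ifit3b. Without PGRN KO replicate 6 and with a loess correction of each library for gene length, all 4 remained called.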

How the data were processed

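Polyadenylated transcripts were measured in 3 WT and 3 PGRN KO libraries. The authors removed poor reads, aligned with HISAT, counted fragments per gene and deposited FPKM for each library. The submitters' processing notes name CASAVA, HISAT2 2.0.5, featureCounts 1.5.0-p3 and DESeq2 1.20.0 with builds mm10 and GRCm38, whereas the methods of the study name HTSeq. The sources used here give neither the annotation release nor the strand setting. The deposited table also holds the gene length that scales each value.

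FPKM times gene length came out as whole fragments for 100% of values within a tolerance of 0.001. Depth was 15996786 to 17551619 fragments per library, and the library size behind the FPKM was 0.925 to 1.09 times the counted fragments. Intervals and floors from fragments would cover counting error only.

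The 8882 genes whose mean FPKM reached 1 were analysed as log2(FPKM + 1) with limma 3.58.1 in R 4.3.3 (empirical Bayes with variance trend, two-sided, no covariates, Benjamini-Hochberg over all tested genes, threshold 0.05), since the values are not counts. Exact permutation tests used SciPy 1.17.1 in Python 3.11.15. The fit was run on simulated data with known changes, as a check of the code. The simulated libraries had the same relative spread between replicates for every gene and no trend with gene length. They therefore do not test the p-values under the spread of these data. Promoters came from RefSeq (GRCm38.p6), transcripts from GENCODE, in which 99.77% of genes were found and 98.33% of these had the same position. All 6 IFIT genes had a promoter window. Transcripts were aligned with Biopython 1.88.

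The named genes were the 4 members, Grn, all listed IFIT genes, neighbours, Stat2, Irf9 and interferon ligands, the 2 largest called changes of each other list, and the 5 genes most alike by each correlation. Ticam1, Ifnar1, Ifnar2, Irf7, Pias1, Socs3, Pcif1, Cmtr1 and Rnmt were chosen after their values were seen. So were other marker genes named as defining their cell type, by their level, by their direction or by a changed call. A gene that the rule also names is not reported here. The members and lists were chosen with earlier results of these data known. Alternatives were pseudocounts of 0.1 and 0.01, no filter, a mean FPKM of at least 5, the TPM scale, summed fragments as library size, quantile normalization, no variance trend, quality weights, voom on recovered fragments, a loess correction for gene length (span 0.5) and leaving out each library. The sum of Ifit3 and Ifit3b, and the loess correction without PGRN KO replicate 6, were chosen after seeing the data.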

Additional observations from a re-analysis of the deposited data

How the results depend on the processing

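The 4 IFIT genes stayed higher in PGRN KO and past the threshold under each of the 18 alternatives, and Ifit3 also when summed with Ifit3b. With 1 library left out, the log2 fold change was 0.83 to 1.09 for Ifit1, 1.31 to 1.60 for Ifit2, 1.42 to 1.83 for Ifit3 and 1.35 to 1.65 for Ifit3b. The count of other interferon-stimulated genes called higher was 13 to 30 with 1 library left out, and 21 to 32 under the other settings. The count of all genes called was 2151 as reported, 1366 with no filter on low values, 4225 with quality weights, 713 to 3668 with 1 library left out and 3675 with the loess correction without PGRN KO replicate 6. Genes called higher numbered 921 as reported, 529 at a mean FPKM of at least 5 and 603 with no filter. With summed fragments as library size, 1179 of 1874 calls were higher.

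The difference between genotypes in the log2 ratio of Ifit3 to Ifit3b changed sign with a pseudocount of 0.1 (-0.045) or 0.01 (-0.064), and that of Ifit2 to Ifit3b with the loess correction for gene length (0.052). With 1 library left out, the difference was -0.58 to -0.39 for Ifit1 to Ifit2, -0.80 to -0.46 for Ifit1 to Ifit3, -0.62 to -0.40 for Ifit1 to Ifit3b, -0.31 to 0.12 for Ifit2 to Ifit3, -0.20 to 0.18 for Ifit2 to Ifit3b and 0.06 to 0.18 for Ifit3 to Ifit3b. The values near 0 for Lipa changed sign on the TPM scale (0.039), with summed fragments (0.083), with quantile normalization (0.014) and with 1 library left out (-0.044 to 0.0049), and those of Irf9 on the TPM scale (0.012), with summed fragments (0.055) and with quantile normalization (0.0071). The cause was not tested.

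No paired analysis was possible because no replicate number of WT recurs in PGRN KO. The 3 libraries per genotype limit the precision more than depth does for Ifit1, Ifit2 and Ifit3.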

Other observations

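Among the 40 other interferon-stimulated genes, the 3 with the highest mean level were not all among those called higher. Isg15, which encodes a ubiquitin-like modifier, was at 1626, 1857 and 1521 FPKM in WT libraries and 1757, 1502 and 2714 FPKM in PGRN KO libraries, with overlapping groups (log2 fold change 0.21 ± 0.23, SE, limma adjusted p of 0.516). Ccl5, a chemokine, was at 1325, 1635 and 1002 FPKM in WT libraries and 1674, 1267 and 2030 FPKM in PGRN KO libraries, also with overlapping groups (0.33 ± 0.24, SE, limma adjusted p of 0.337). Rsad2, which encodes viperin, was called higher (1.03 ± 0.14, SE, limma adjusted p of 0.0048). These 3 genes were chosen after their values were seen.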
